A study of Mus musculus with 9 samples.

Results

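Nrf1, encoded by *Nfe2l1*, is a transcription factor of the Cap'n'Collar family, which also holds Nrf2. It is held at the membrane of the endoplasmic reticulum, is normally degraded, and enters the nucleus after processing, where it pairs with small Maf proteins and binds antioxidant response elements. It is best known for raising proteasome subunit genes when proteolysis fails. The question here was which other transcripts moved in cardiomyocyte cultures infected with Nrf1, so the genes below lie mostly outside the proteasome, innate immune and extracellular matrix genes.

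All genes of the authors' table for Nrf1 and LacZ were taken, 14819 rows from 6 of the 9 libraries of the series. NRVMs (neonatal rat ventricular myocytes) came from newborn Sprague-Dawley rats aged 1 to 2 days and were kept in culture. They were infected at a multiplicity of infection of 50 with an adenovirus for LacZ, a bacterial β-galactosidase used as control, or for mouse Nrf1. Both viruses carry the CMV promoter, which drives expression in any infected cell and not in cardiomyocytes alone, together with a red fluorescent protein. RNA was collected 48 h after infection, with 3 libraries in each group. Although the series lists mouse as the organism, the cells are rat and reads were aligned to the rat genome Rnor 6.0. *Nfe2l1* itself was not analysed here, so the rise of Nrf1 was not checked in these libraries.

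The table gives the mean normalized count of each group, that is, reads per gene divided by a size factor per library. Because every group stands in 2 tables of the series with different size factors, the digits of its means could be resolved into whole reads of single libraries, for 14467 of 14470 genes with reads in LacZ and 14242 of 14293 in Nrf1. These libraries are called a, b and c, in order of depth, and which numbered sample each one is remains unknown. They hold 9346869, 8217544 and 7873464 reads in LacZ and 10354964, 10104071 and 8597912 in Nrf1. Where the higher mean reached 100, the SD between libraries was 5.21% of the mean in LacZ and 4.01% in Nrf1 at the median gene. Correlations across genes of log2 values ran from 0.990 to 0.993 within groups and from 0.944 to 0.955 between groups, and LacZ library b lay furthest from the Nrf1 libraries. Cardiomyocyte markers were abundant in every library, with *Actc1*, *Tnnt2* and *Actn2* at means of 34991, 32049 and 16897 in LacZ samples. Markers of fibroblasts, endothelial cells and leukocytes were also read in every library.

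A gene was called higher or lower when the means differed by more than 1.5-fold and one of them reached 10. Of 11453 genes that reached this level, 1359 (11.9%) were higher and 2073 (18.1%) lower in Nrf1 samples compared to LacZ samples. The library values were then tested with limma on log2(value + 1) across 11429 genes. With an adjusted p under 0.05 added to the fold, 1301 genes (11.4%) rose and 1953 (17.1%) fell, and in what follows "rose" and "fell" are used for these genes only. Each ratio is the log2 ratio of the group means, each standard error (SE) is that of limma's difference on log2(value + 1), and each p is limma's adjusted p over all genes tested. Over all genes tested, 11.4% rose and 17.1% fell, and the counts of each gene list below stand against these shares. Many lists are counted over all matched members. Members below a mean of 10 could not rise or fall, so such counts understate the share of the list. The labels do not say whether libraries came from separate cultures, so p-values measure the spread between these libraries, which may be technical. The spread between libraries was small enough that 7647 genes passed the adjusted p at any fold, 3929 of them higher and 3718 lower. 

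**Figure D1:**
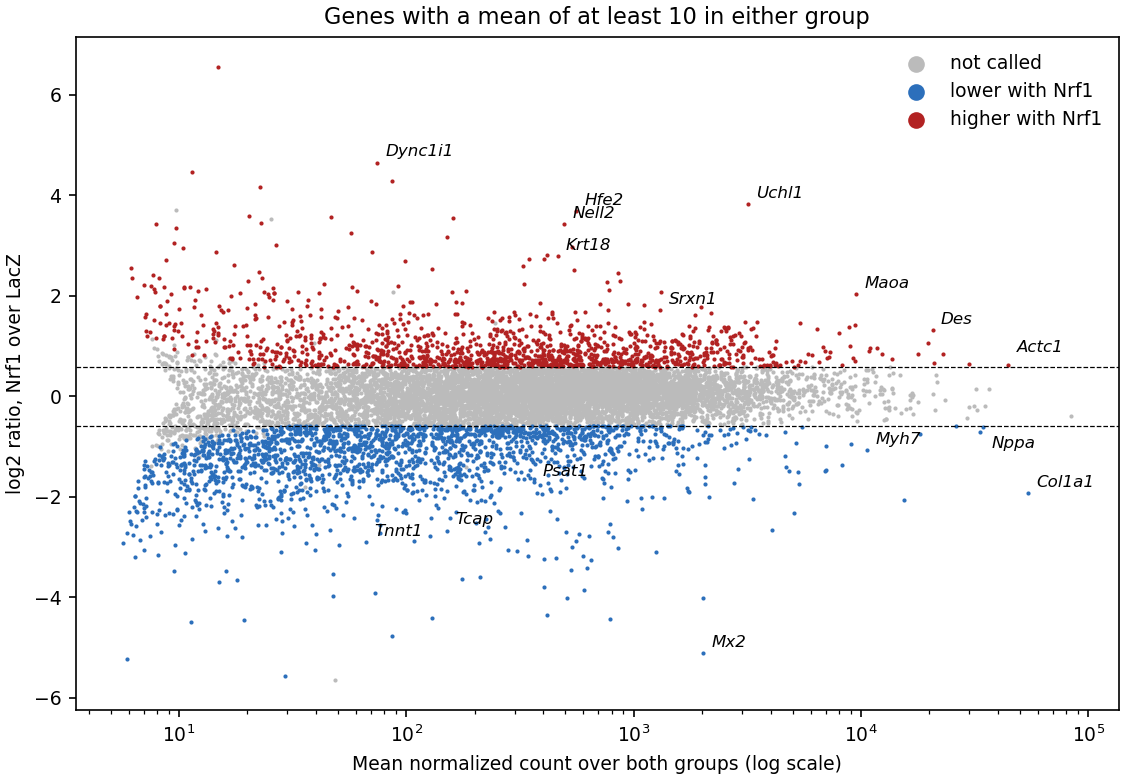
Each point is a gene whose LacZ or Nrf1 mean reached 10, the x axis is the mean normalized count over both groups on a log scale, and the y axis is the log2 ratio of the group means. Red and blue points are genes that rose and genes that fell, dashed lines mark 1.5-fold, and decreases crowd at low counts while *Uchl1* and *Maoa* stand out among well expressed genes that rose.

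Most genes, called or not, lay outside the proteasome, innate immune and matrix families. By name patterns, 10937 of the 11453 genes belonged to none of the 3 families, and of these 1236 rose and 1643 fell. Past 1.5-fold, 11.8% of them were higher and 16.1% lower, near the 11.9% and 18.1% of all genes. The median log2 ratio was 0.91 for 50 proteasome genes, -1.30 for 294 innate immune genes, -0.72 for 172 matrix genes and 0.02 for all others.

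Decreases were concentrated among weakly expressed genes. Among genes with a mean of 10 to 30 over both groups, 42.4% were lower and 12.6% higher, with a median log2 ratio of -0.41. Between 1000 and 3000 the shares turned around, to 5.81% lower and 12.2% higher. The median gene lay at 0.00 where the mean reached 10 and at 0.05 where it reached 100. In a bulk culture, fewer cells of a type and less RNA per cell cannot be told apart.

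**Figure D2:**
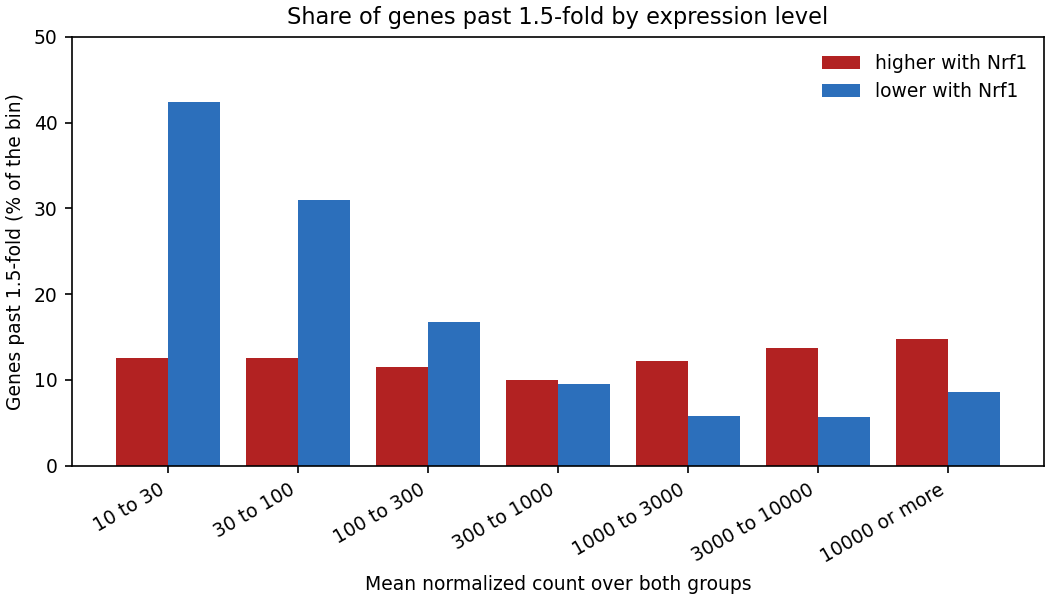
Bars give the share of genes past 1.5-fold in each bin of mean normalized count over both groups, red for higher and blue for lower in Nrf1 samples. The share of lower genes falls from 42.4% in the lowest bin to 5.63% at means of 3000 to 10000, while the share of higher genes stays between 10.02% and 14.8%.

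The largest relative increase outside the 3 families, where one mean reached 100, was that of *Dync1i1*, an intermediate chain of cytoplasmic dynein, the motor that carries cargo toward the minus end of microtubules. It read 8.52, 6.34 and 2.23 in the LacZ libraries and 147, 146 and 136 in the Nrf1 libraries, a log2 ratio of 4.65 (SE 0.31, adjusted p = 2.21e-09). It was barely read in control cells and present in every Nrf1 library. *Uchl1*, a ubiquitin hydrolase best known from neurons, went from 461, 388 and 416 to 5914, 5869 and 6086 (log2 ratio 3.82, SE 0.05, adjusted p = 4.00e-17). *Nell2*, a secreted protein of the nervous system, went from 88.96, 84.5 and 79.3 to 939.9, 918 and 863 (log2 ratio 3.43, SE 0.07, adjusted p = 5.40e-15). *Hfe2*, which encodes the bone morphogenetic protein co-receptor hemojuvelin of striated muscle and liver, went from 87.1, 65.5 and 90.5 to 1091, 1010.4 and 1013 (log2 ratio 3.68, SE 0.10, adjusted p = 3.99e-14). For each of these 4 genes the lowest Nrf1 library was far above the highest LacZ library.

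Other genes among the 25 largest log2 ratios were of varied function. *Krt18* and *Krt8*, partner keratins of simple epithelia, rose together, *Krt18* from 125, 108 and 119.5 to 791, 799 and 833 and *Krt8* from 92.7, 97.2 and 88.3 to 549.7, 575 and 556. *Nol3*, an inhibitor of apoptosis that is abundant in muscle, had a log2 ratio of 2.81 (SE 0.09, adjusted p = 2.64e-13). *Ckmt2*, the mitochondrial creatine kinase of sarcomeric muscle, had a log2 ratio of 2.73 (SE 0.09, adjusted p = 2.79e-13). *Sncg*, γ-synuclein, stood at 2.72, *Mat1a*, a methionine adenosyltransferase of liver, at 3.18, *Mapre3*, a protein of microtubule ends, at 2.12 and *Rab3d*, a small GTPase of secretory vesicles, at 2.29. Across all genes tested, 36.2% had Nrf1 libraries above every LacZ library, and these 25 did so too, which their choice by ratio all but fixes.

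**Figure D3:**
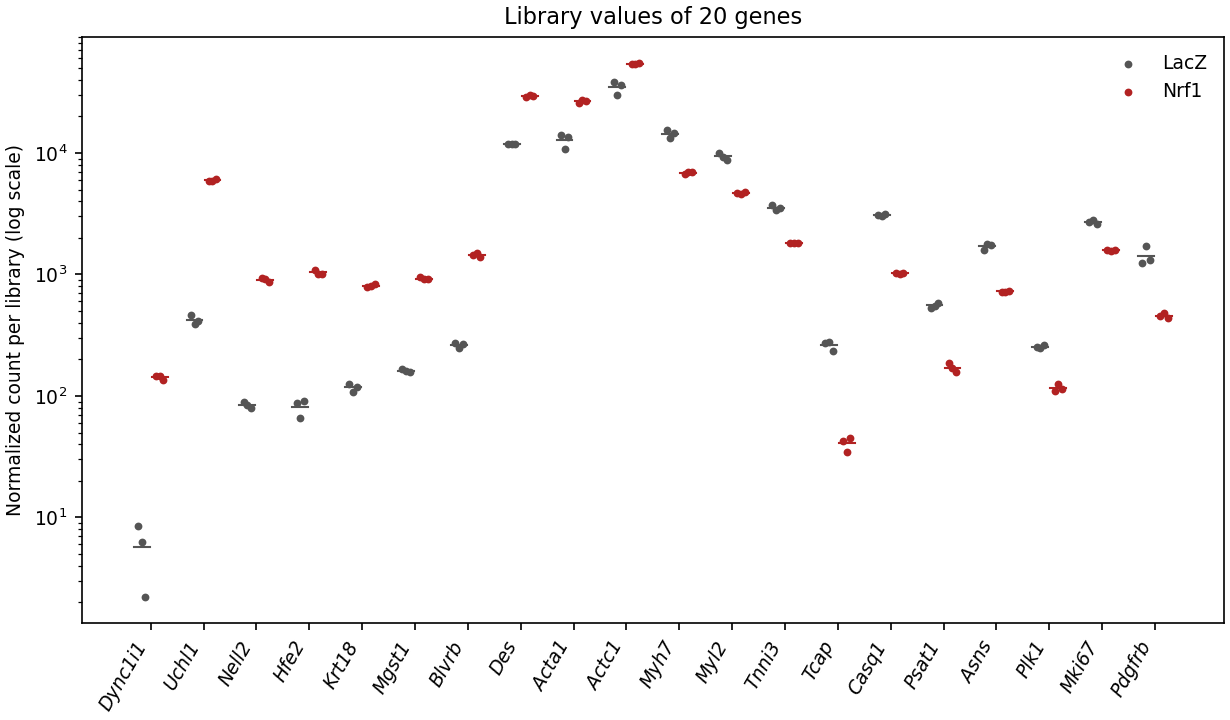
Normalized counts of 20 genes in single libraries, on a log axis, grey points for the 3 LacZ libraries and red points for the 3 Nrf1 libraries, with a line at the group mean. Groups do not overlap for any gene shown, from *Dync1i1* (2.23 to 8.52 in LacZ, 136 to 147 in Nrf1) to *Actc1*, the most abundant.

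By absolute amount, the muscle actins *Actc1*, *Acta1* and *Acta2* and desmin gained most. *Actc1*, cardiac α-actin, had the largest gain in mean, from 38586, 30209 and 36177 to 53675, 53914 and 54578 (log2 ratio 0.63, SE 0.06, adjusted p = 1.35e-07), and its log2 ratio was 0.53 without LacZ library b, within 1.5-fold. *Des*, the muscle intermediate filament, went from 11895, 11935 and 11821 to 29002, 29753 and 29562 (log2 ratio 1.31, SE 0.03, adjusted p = 5.58e-15). Skeletal α-actin, *Acta1*, had a log2 ratio of 1.07 (SE 0.07, adjusted p = 7.07e-10). Smooth muscle α-actin, *Acta2*, which embryonic cardiomyocytes also express, stood at 0.84 (SE 0.05), and *Tagln*, an actin-binding protein of smooth muscle, at 0.83 (SE 0.05). Smooth muscle γ-actin, *Actg2*, went the other way, from 576, 665 and 541 to 179, 151 and 141 (log2 ratio -1.92, SE 0.09, adjusted p = 4.25e-11). *Maoa*, the mitochondrial monoamine oxidase, went from 4231, 3063 and 3899 to 15048, 15486 and 15395, and *Map1a*, a microtubule-associated protein, from 5678, 4482 and 5174 to 13808, 13776 and 13423. *LOC310926* also ranked among the gains, with 10429, 32048 and 27596 in LacZ and 38590.4, 34268 and 36066 in Nrf1 libraries, where LacZ library a lay far below the other two. Its log2 ratio was 0.64 (adjusted p = 0.0136) and 0.28 without that library.

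Several myosin and troponin genes of the sarcomere fell. Of 14 thick and thin filament genes measured, 2 rose (*Acta1* and *Actc1*) and 5 fell, with a median log2 ratio of -0.28. *Myh7*, the slow myosin heavy chain, read 15414, 13372 and 14544 in LacZ and 6695, 6975 and 6991 in Nrf1 libraries (log2 ratio -1.07, SE 0.04, adjusted p = 3.93e-12). *Myl2*, the ventricular regulatory light chain, fell from 10058, 9266 and 8802 to 4713, 4601 and 4754 (log2 ratio -0.999, SE 0.04, adjusted p = 6.25e-12). *Tnni3* and *Tnni1*, the mature and fetal inhibitory subunits of troponin, fell as well, at -0.97 and -0.93. *Myh6*, the fast cardiac heavy chain, was at -0.34 and *Tnnt2* at -0.21, both within 1.5-fold although past the adjusted p (adjusted p = 3.33e-06 and 8.33e-04). *Tnnt1*, the slow skeletal troponin T, had the largest relative decrease outside the 3 families, where one mean reached 100, from 132, 95.1 and 125 to 12.5, 19.3 and 15.03.

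Among 18 matched genes of the Z-disc and M-band, 17 of which reached a mean of 10, *Des* rose and *Tcap*, *Myom1* and *Myom2* fell, with a median of 0.02. *Tcap*, telethonin, which caps titin at the Z-disc, fell from 273, 278 and 233 to 42.8, 34.9 and 45.1 (log2 ratio -2.68, SE 0.13, adjusted p = 3.49e-11). α-Actinin, *Actn2*, was at -0.01 (adjusted p = 0.786).

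Calcium handling genes went both ways, with 3 of 19 matched genes that rose and 2 that fell (median 0.05), where 11.4% of all genes rose and 17.1% fell. The release channel of the sarcoplasmic reticulum, *Ryr2*, rose from 4456, 4050.5 and 4109 to 7529.6, 7552 and 7355 (log2 ratio 0.83, SE 0.04, adjusted p = 1.67e-11). *Casq1*, a calcium buffer of the reticulum, fell from 3106, 3051 and 3137 to 1032, 1004 and 1023 (log2 ratio -1.60, SE 0.04, adjusted p = 5.81e-15), and *Hrc*, another luminal calcium-binding protein, had a log2 ratio of -1.87 (SE 0.12). The cardiac buffer *Casq2* stood at -0.02 and the calcium pump *Atp2a2* at 0.03, with adjusted p = 0.863 and 0.362. *Sln*, sarcolipin, an inhibitor of that pump, rose by 1.54 and its ventricular counterpart *Pln* was at 0.00.

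Among 22 channel and gap junction genes, 0 rose and 4 fell, the latter near the 17.1% of all genes that fell (median -0.10). Among those that fell were *Gja5*, the connexin of atrial and conduction cells (-1.46), and *Cacna1g*, a T-type calcium channel (-1.20). The main ventricular connexin *Gja1* was at 0.33.

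Of 19 cardiac transcription factors, 3 rose and 4 fell, near the 11.4% and 17.1% of all genes, with a median of -0.18 that turned to 0.05 over the 13 reaching a mean of 100. *Hand1*, a factor of the early left ventricle, went from 12.3, 20.1 and 5.59 to 40.1, 59.6 and 41.9, and its relative *Hand2* from 241, 190.2 and 181 to 293, 361 and 358. *Irx4*, a ventricular factor, rose by 0.65 (0.55 without LacZ library b and 0.55 without Nrf1 library c), while *Irx3* and *Irx5* fell, at -0.75 (-0.58 without Nrf1 library c) and -0.73. *Tbx3*, a factor of the conduction system, had a log2 ratio of -1.57 (SE 0.24, adjusted p = 2.68e-05), and *Tbx18*, a factor of epicardium and sinus node, one of -1.01 (SE 0.11). *Gata4* and *Nkx2-5* were at 0.21 and 0.46, within 1.5-fold.

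The natriuretic peptides, both made by stressed cardiomyocytes, moved apart. *Nppa* read 45559, 38225 and 41338 in LacZ and 27316, 26586 and 27364 in Nrf1 libraries (log2 ratio -0.62, SE 0.05, adjusted p = 9.07e-09, and -0.55 without LacZ library a). *Nppb* read 3224, 2597 and 3072 and 5093, 5257 and 5369 (log2 ratio 0.82, SE 0.06, adjusted p = 3.66e-09). In the whole list of 14 natriuretic and growth-stress genes, 3 rose and 6 fell, among the latter *Edn1* (-0.80), *Gdf15* (-0.67) and the nuclear receptor *Nr4a3* (-1.71). Immediate-early genes, which answer to stimulation within minutes, fell in 8 of 18 cases, with *Egr2* at -1.48, *Egr1* at -1.18, *Atf3* at -1.12 and *Fos* at -0.88, and *Fosl1* rose (median of the list -0.46).

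Most markers of the other cells in the culture fell. Of 14 cardiomyocyte markers, 2 rose and 4 fell (median -0.11), and their summed level was 197062 to 226205 in LacZ and 195735 to 197785 in Nrf1 libraries. For 15 fibroblast markers, 13 fell and 0 rose (median -1.65), with sums of 140609 to 144599 in LacZ and 50709 to 52995 in Nrf1 libraries. The endothelial list of 15 had 11 that fell (median -0.90), with sums of 5005 to 5081 in LacZ and 2941 to 3002 in Nrf1 libraries. The leukocyte list of 18 had 17 that fell (median -1.47), with sums of 2484 to 3631 in LacZ and 1334 to 1424 in Nrf1 libraries. Much of the fibroblast sums and of their fall was *Col1a1*, a matrix gene whose library values are given in the last paragraph. Fibroblast and leukocyte lists include matrix and immune genes. Among their surface proteins, *Pdgfrb* fell from 1250.2, 1727 and 1313 to 454, 482 and 435, *Thy1* from 722, 796 and 763 to 265, 254 and 263 and *Ptprc* from 119, 193 and 128 to 40.1, 43.1 and 50.5. Within LacZ, each of these read highest in library b, where *Actc1*, *Myh7* and *Tnni3* read lowest, though *Myl2* read lowest in library c. Marker levels thus varied between LacZ libraries, and the marker ratios carry this spread. *Robo4*, an endothelial receptor with almost no reads in LacZ, was at 0 in Nrf1 libraries. All other markers of these lists were still read in Nrf1 samples, and some stood apart from their list, such as *Vim* at -0.34, *Kdr* at 0.14 and *Csf1r* at 0.43, all within 1.5-fold. The highest member stood at 0.57 in the fibroblast list and at 0.35 in the endothelial list, also within 1.5-fold. Each of the fibroblast, endothelial and leukocyte lists had 1 marker above LacZ at the adjusted p. Smooth muscle and pericyte markers were mixed, as *Des*, *Acta2* and *Tagln* rose and 5 of 14 fell, among them *Myh11* (-1.01) and *Notch3* (-1.13). Of 9 epicardial and mesothelial markers, 5 fell and the keratins *Krt8* and *Krt18* rose.

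Several of the largest decreases outside the excluded families were of genes that such cells are known to express. *Serpinf1*, a secreted anti-angiogenic serpin, had a log2 ratio of -2.61 (SE 0.10, adjusted p = 1.93e-12), *Igfbp4*, a binding protein of insulin-like growth factors, one of -2.10 (SE 0.11) and *Clec14a*, an endothelial surface protein, one of -2.002 (SE 0.09). *Siglec1*, a macrophage lectin, stood at -2.25. *Ly6e* and *Uba7*, both known to be induced by interferon, stood at -2.87 and -2.78, outside the name patterns of the innate immune family. The imprinted RNA *H19* read 80.4, 215 and 83.8 and 27.6, 22.9 and 22.5, with LacZ library b well above the other LacZ libraries (log2 ratio -2.37, and -1.75 without it). Across all genes tested, 34.4% had Nrf1 libraries below every LacZ library, and the 25 genes with the largest decrease by ratio did so too, as their choice by ratio all but fixes.

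Many growth factor and morphogen ligands fell. Of 55 matched ligands, 51 reached a mean of 10, 27 fell and 4 rose, where 17.1% of all genes tested fell. Their median was -0.74, and -0.41 over the 31 that reached a mean of 100. *Nrg1*, which acts on ErbB receptors of cardiomyocytes, fell from 796, 776 and 864 to 323, 339 and 379 (log2 ratio -1.23, SE 0.07, adjusted p = 1.35e-10). *Igf1* and *Igf2* had log2 ratios of -1.07 and -1.03, and *Hgf*, the ligand of *Met*, one of -2.04. The ligands that rose included *Mstn*, myostatin, a brake on muscle growth, from 65.3, 57.1 and 54.7 to 191, 224 and 220.1, and *Fgf16*, a fibroblast growth factor of the heart, from 35.96, 27.5 and 39.1 to 77.5, 84.4 and 77.3. *Tgfb2* was at 0.45, and *Vegfa* at -0.57. Among 50 receptors, 46 reached a mean of 10, 4 rose and 9 fell, near the 11.4% and 17.1% of all genes. The median was -0.25, but -0.08 over those 46. *Fgfr1* was at 0.73, the α1-adrenergic receptors *Adra1a* and *Adra1d* at 0.95 and 0.87, and *Pdgfra* and *Pdgfrb* at -1.47 and -1.65. The marker lists above fell beside these decreases, and their part in them was not tested.

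Many genes of mitosis fell. All 27 mitosis genes measured reached a mean of 10, 13 fell and 0 rose (median -0.52), and 24 were below LacZ at the adjusted p. *Plk1*, the kinase that drives mitotic entry, fell from 253, 250.4 and 260.3 to 109.6, 125 and 115 (log2 ratio -1.13, SE 0.09, adjusted p = 1.72e-08). *Mki67*, the antigen used to mark cycling cells, fell from 2687, 2807 and 2593 to 1583, 1557 and 1590.2 (log2 ratio -0.77, SE 0.04, adjusted p = 6.43e-11). *Kif23*, a kinesin of the cytokinetic midzone, was at -1.06 and *Aurka* at -0.63 (-0.52 without LacZ library c and -0.58 without Nrf1 library b), while *Cdk1* and *Ccnb1* were within 1.5-fold, at -0.35 and -0.26. Of 28 replication genes, 3 rose, *Gins1*, *Dut* and *Mcm2* (1.05, 0.91 and 0.79), and 0 fell (median 0.06). *Pcna* was at 0.02 (adjusted p = 0.731). Among 17 G1 cyclins and Cdk inhibitors, *Ccnd2*, *Cdkn1c* and *Cdkn2a* fell, at -1.08, -1.08 and -1.41, a share near the 17.1% of all genes. The inhibitor *Cdkn1a* was at -0.22 (median of the list -0.15). Which cells of the culture these mitotic transcripts came from was not measured.

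Targets of p53 and regulators of apoptosis fell in 7 and rose in 4 of 31 cases (median -0.22), near the 17.1% and 11.4% of all genes. *Mdm2*, the ubiquitin ligase of p53 and itself a target, fell from 6418, 7207 and 6414 to 4414, 4266 and 4345 (log2 ratio -0.62, SE 0.04, adjusted p = 2.51e-09, and -0.56 without LacZ library b). The death genes *Bbc3* and *Pmaip1* fell as well, at -0.94 and -0.80, as did *Phlda3*, an inhibitor of Akt (-0.75). Those that rose were *Aifm2*, which protects from ferroptosis (1.25), *Tigar* (0.82), *Plk3* (0.73) and the pore former *Bak1* (0.65, and 0.57 without LacZ library b).

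Most targets of Atf4 fell. Atf4 is the transcription factor of the integrated stress response, which supplies amino acids and serine-derived carbon. Of 25 matched genes, 22 reached a mean of 10, 16 fell, 0 rose, and 21 were below LacZ at the adjusted p (median -0.86). *Psat1*, of serine synthesis, fell from 532, 554 and 588 to 186, 169 and 158 (log2 ratio -1.71, SE 0.08, adjusted p = 1.37e-11). *Asns*, asparagine synthetase, fell from 1587, 1778 and 1757 to 723, 720.4 and 729 (log2 ratio -1.24, SE 0.05, adjusted p = 2.75e-12). *Phgdh*, the entry enzyme of serine synthesis, was at -0.98, *Shmt2* and *Mthfd2*, which carry serine into folate-bound carbon, were at -0.94 and -1.23, and *Ddit3*, which encodes the stress factor CHOP, at -1.03. *Atf4* itself was at -0.55, just within 1.5-fold (SE 0.04, adjusted p = 3.21e-09).

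Amino acid transporters, several of them Atf4 targets too, fell in 10 of 19 cases and rose in 1 (median -0.60). *Slc7a5*, which imports leucine, fell from 2221, 2432 and 2403 to 1123, 1148 and 1110.2 (log2 ratio -1.06, SE 0.04, adjusted p = 4.06e-12), and the arginine transporters *Slc7a2* and *Slc7a3* had log2 ratios of -1.87 and -1.70. *Slc36a1*, of lysosomes, was the one that rose (0.66). Cytosolic tRNA synthetases had a gene that rose, *Hars*, and a gene that fell, *Cars*, among 20 (median 0.00). Chaperones of the endoplasmic reticulum and Xbp1 targets fell in 3 of 23 cases, near the share of all genes (median -0.23), and the main chaperone *Hspa5* was at 0.12.

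Some enzymes of fuel use rose. Of 29 genes of fatty acid uptake and β-oxidation, 8 rose and 1 fell (median 0.19). *Acadvl*, the very long-chain dehydrogenase of β-oxidation, went from 1125, 1025 and 999 to 2664, 2555 and 2814 (log2 ratio 1.35, SE 0.05, adjusted p = 1.21e-12). *Hadh* and *Cpt2*, of the same pathway, rose by 1.27 and 1.11, and *Cd36*, a fatty acid receptor at the cell surface, by 0.86. *Acadm*, the medium-chain dehydrogenase, was at -0.14. Glycolytic genes rose in 5 and fell in 0 of 26 cases (median 0.36), with *Pgam1* at 0.997, *Pkm* at 0.97, the lactate carrier *Slc16a3* at 0.97 and *Ldha* at -0.07.

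The respiratory complexes had a median of -0.02 over 39 nuclear genes, where *Ndufa5* rose (0.59, and 0.53 to 0.56 without 1 of the libraries LacZ b, LacZ c or Nrf1 a) and the muscle forms *Cox6a2* and *Cox8b* fell (-0.85 and -0.77). *Ndufa1* had a log2 ratio of -5.64 that rests on LacZ library c alone, with 1.89, 0 and 285 in LacZ and 2.67, 0.918 and 2.15 in Nrf1 libraries (adjusted p = 0.268), and was 1.01 without it. The tricarboxylic acid cycle had 1 gene of 22 that rose, *Pdk2* (0.66, and 0.54 without LacZ library b), and a median of 0.03. Mitochondrial ribosomal protein genes rose in 8 and fell in 0 of 36 cases (median 0.27), *Mrps10* most (1.13). Among cholesterol synthesis and uptake genes *Sc5d* was the one that rose of 25 (median 0.12). Lipogenesis and triglyceride storage genes were split 5 against 2 of 27 (median 0.01), and *Cidea*, a lipid droplet protein, rose from 473, 343 and 417 to 1104, 1142 and 1129.6.

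Protein degradation genes beyond the proteasome included some that rose. For scale, 32 of 33 proteasome subunit genes rose, with a median of 1.10. Of 30 ubiquitin, shuttle and p97 genes, 8 rose and 0 fell (median 0.27). *Vcp*, the p97 ATPase that pulls proteins from membranes and complexes, rose from 7999, 7819.8 and 8037 to 15423, 15721 and 15489.5 (log2 ratio 0.97, SE 0.03, adjusted p = 1.71e-13). Its cofactors *Nsfl1c*, *Ufd1l* and *Nploc4* rose with it (0.97, 0.95 and 0.76), as did the shuttle *Rad23b* (0.76), while the ubiquitin gene *Ubb* was at 0.14. Deubiquitinases rose in 8 of 28 cases and fell in 0 (median 0.24), a list that includes the proteasome subunit *Psmd14*. Apart from *Uchl1*, *Usp5* (1.22), *Josd1* (1.20) and *Usp14* (1.08), which trims chains on the proteasome, rose most.

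Autophagy genes rose in 7 and fell in 1 of 34 cases (median 0.26). *Sqstm1*, the p62 cargo receptor, rose from 4489.8, 4539.7 and 4689 to 8812, 9087 and 9321 (log2 ratio 0.99, SE 0.03, adjusted p = 5.33e-13), and *Gabarapl1*, a membrane-bound ubiquitin-like protein, by 1.07. Lysosomal genes went both ways, 4 up and 10 down of 39 (median -0.19). *Gaa*, the α-glucosidase that breaks down lysosomal glycogen, rose by 1.61, and the proton pump subunits *Atp6v1h* and *Atp6v1a* rose by 1.08 and 0.75. *Ctsk* and *Ctsz*, cathepsins abundant in bone and myeloid cells, fell, at -1.52 and -1.51. Cytosolic heat shock genes rose in 4 and fell in 1 of 24 cases (median 0.15), with the small heat shock protein *Hspb1* (0.83) and the partners *Bag3* (0.69) and *Hspb8* (0.59, and 0.56 without LacZ library a) among the former.

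Redox genes of the glutathione and thioredoxin systems rose in part. Glutathione genes rose in 14 and fell in 5 of 37 cases (median 0.32). *Mgst1*, a glutathione transferase of membranes, went from 167, 159.6 and 159 to 946, 914 and 918 (log2 ratio 2.52, SE 0.06, adjusted p = 7.07e-15). *Gclm*, *Gss* and *Gsr*, which make glutathione and reduce it again, rose by 1.42, 1.23 and 1.44. The catalytic subunit *Gclc* was at 0.52, within 1.5-fold (adjusted p = 3.41e-08), and *Gsta1* fell (-0.80). Thioredoxin and peroxiredoxin genes, listed together with superoxide dismutases, catalase, methionine sulfoxide reductases and sestrins, rose in 10 and fell in 3 of 23 cases (median 0.35). *Srxn1*, sulfiredoxin, rose from 602, 579 and 662 to 2058, 2012 and 1951, *Prdx1* by 1.35 and catalase, *Cat*, by 1.11, whereas *Txnrd1* was at 0.35 and *Sod3*, a secreted dismutase, fell (-1.48). Transferases of 1 class have near-identical copies, between which reads may be split.

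Enzymes that supply NADPH rose in 5 and fell in 2 of 20 cases (median 0.05), *Pgd* and *Taldo1* of the pentose phosphate route by 1.34 and 1.10. Enzymes acting on quinones, carbonyls and aldehydes had 3 that rose and 7 that fell of 35 (median 0.02). *Nqo1*, the best known Nrf2 target, was at 0.46 (adjusted p = 1.86e-05), *Akr1b8* fell from 721, 727 and 755 to 388, 427 and 447, and the epoxide hydrolase *Ephx1* fell (-1.53). Drug and conjugate transporters were 4 up and 2 down of 16 (median 0.27), the latter the multidrug pumps *Abcb1a* and *Abcb1b*.

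Heme and iron genes rose in 10 and fell in 3 of 34 cases (median 0.18). Beside *Hfe2*, biliverdin reductase B, *Blvrb*, rose from 271, 249 and 269 to 1450.3, 1508 and 1385 (log2 ratio 2.46, SE 0.06, adjusted p = 5.58e-15). *Hmox1*, which breaks heme down, rose by 1.29, and *Alas1*, which makes the first precursor of heme, by 1.19. Ferritin heavy chain, *Fth1*, rose from 10889, 9789.6 and 10236 to 17299, 16745 and 17287, the light chain *Ftl1* was at -0.43, and the serum iron proteins *Tf* and *Cp* fell (-1.05 and -1.37). In the list of 24 metallothionein and zinc transport genes, 2 rose and 1 fell. Of 16 partners and regulators of Nrf factors, *Keap1*, the adaptor that marks Nrf2 for degradation, and the small Maf *Mafg* rose, by 0.999 and 1.03, and 3 fell, among them *Maf* and *Maff* (-0.99 and -0.61, the latter -0.55 without LacZ library b). *Nfe2l2*, which encodes Nrf2, was at -0.28 (adjusted p = 3.14e-06).

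Some motor genes of cargo transport rose beyond *Dync1i1*. Of 21 dynein, dynactin and cargo kinesin genes, a list that leaves out mitotic and many other kinesins, 7 rose and 0 fell (median 0.32). *Kif5b*, the ubiquitous kinesin heavy chain, went from 7871, 7047 and 7569 to 14487, 14512 and 14443 (log2 ratio 0.95, SE 0.04, adjusted p = 2.87e-12), and its light chain *Klc1* rose by 0.96. The dynein heavy chain *Dync1h1* was at 0.22. Of 26 genes with a mean of at least 10 whose symbol has a digit right after Kif, 5 were higher and 7 lower past 1.5-fold. Their median was -0.22. Presynaptic and neuroendocrine genes, which include *Uchl1* and the neurofilament *Nefl*, went both ways. Of 34 matched, 26 reached a mean of 10, 3 rose and 8 fell (median -0.15, but 0.33 over the 8 that reached a mean of 100), among the latter *Stmn2* (-2.16) and the synaptotagmins *Syt1* and *Syt7* (-1.34 and -1.83). Cytosolic ribosomal protein genes had a median of -0.18 over 52, of which 3 had no library values and could not be tested. Past 1.5-fold 4 were higher and 3 lower, while 2 rose and 2 fell. The many pseudogenes of these genes make single values uncertain. Clock and PAR bZIP genes fell in 3 of 15 cases, near the share of all genes (median -0.22).

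**Figure D4:**
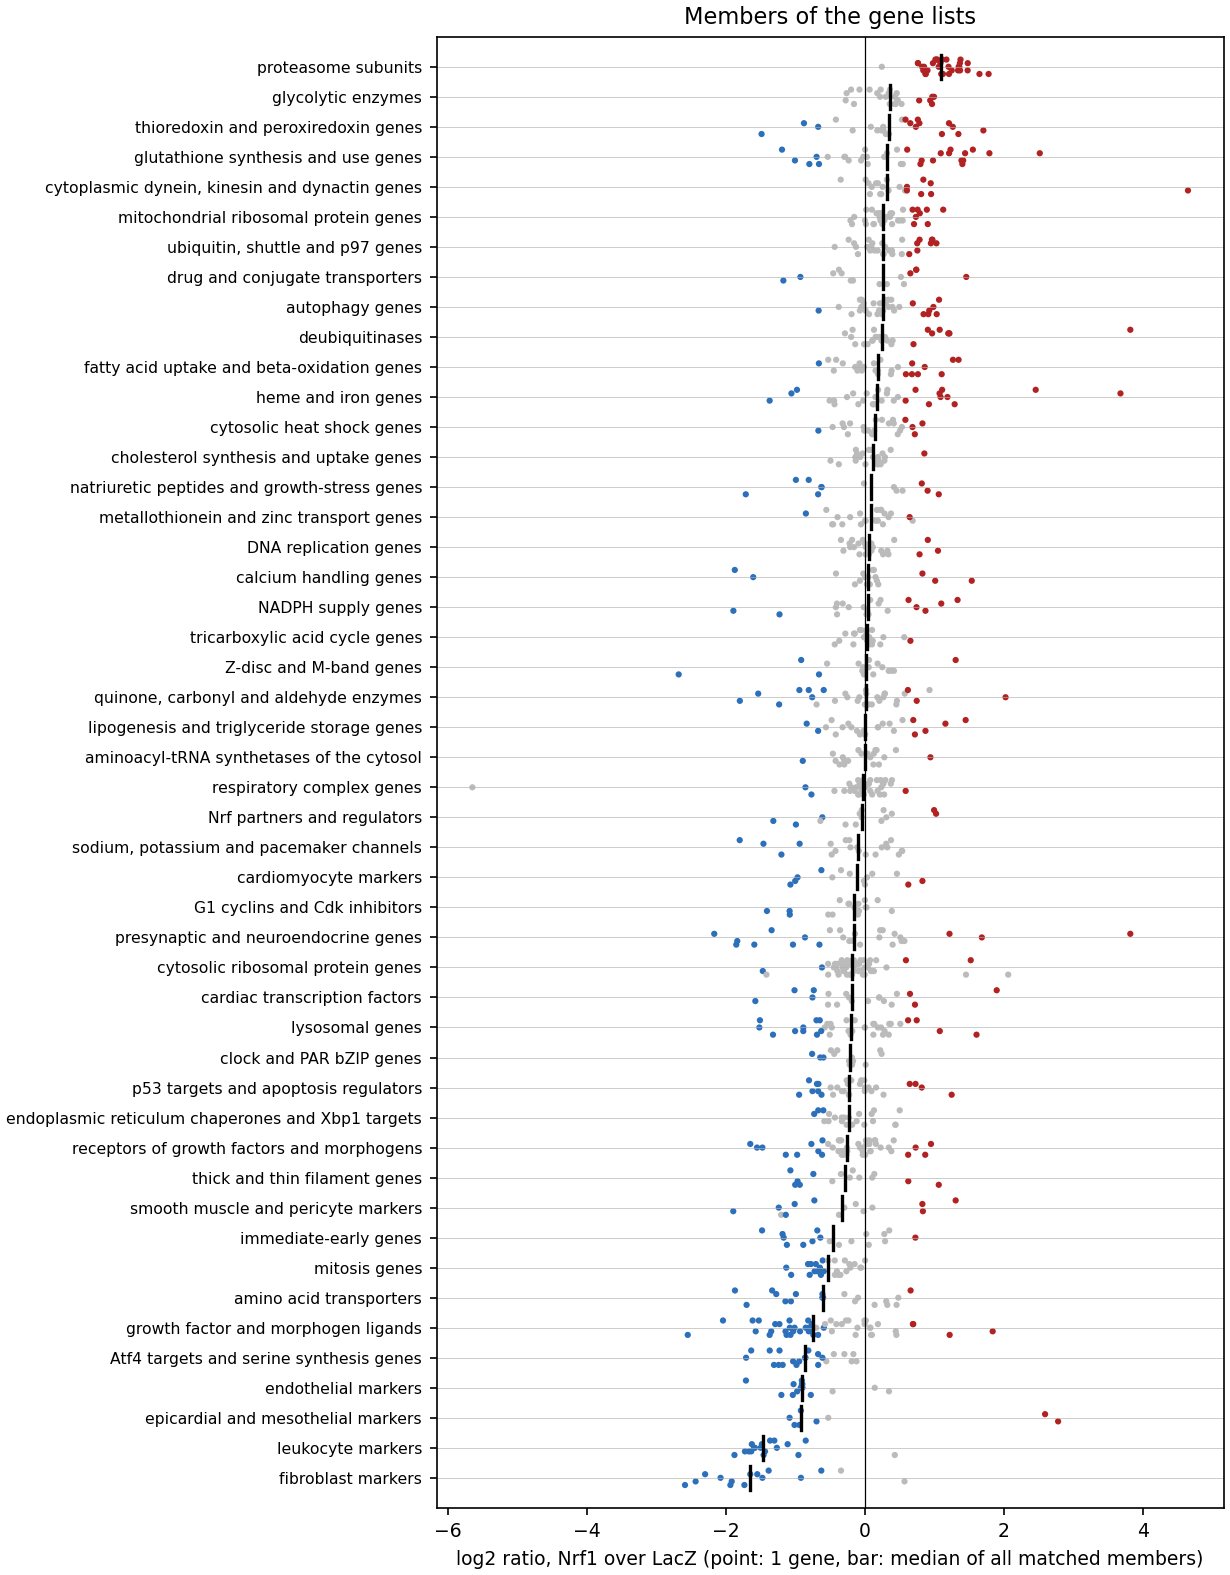
Each row is a gene list, each point a member whose mean reached 10, placed at its log2 ratio of Nrf1 over LacZ, and each black bar the median of all matched members. Red points rose and blue points fell, and medians run from -1.65 for fibroblast markers to 1.10 for proteasome subunits, with Atf4 targets and mitosis genes on the low side and glutathione, glycolytic and motor genes on the high side.

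A few transcripts were near silent in one group. *Mt3*, a metallothionein of brain, had 0 reads over the LacZ libraries and 39 over the Nrf1 libraries, at least 11.9-fold higher when 3 reads over the group are taken as the floor. *RGD1561795* had 1 and 94 reads, a ratio of 93.3 with an exact 95% counting interval of 16.3 to 3725. In the other direction *Oas1i*, an antiviral synthetase gene, had 43 reads in LacZ and 0 in Nrf1 libraries, at least 16.1-fold lower. Both the interval and the floors cover counting error only.

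The series also holds libraries with Nrf2 in place of Nrf1, which allows the genes above to be compared between both factors. The Nrf2 and Nrf1 ratios share their LacZ libraries, so they are given side by side, and the difference was tested between Nrf1 and Nrf2 libraries with limma on their own table, where 6759 of 11487 genes (58.8%) differed. Many genes named above also stood away from LacZ with Nrf2. For the 25 largest increases by ratio, the log2 ratio over LacZ ran from 2.09 to 4.65 with Nrf1 (median 2.73) and from -0.37 to 5.94 with Nrf2 (median 1.81). For the 25 largest decreases it ran from -2.91 to -1.92 with Nrf1 (median -2.26) and from -1.86 to -0.39 with Nrf2 (median -1.21). *Dync1i1*, at the low end of the Nrf2 values, had a log2 ratio over LacZ of 4.65 with Nrf1 and -0.37 with Nrf2, and Nrf1 exceeded Nrf2 by 5.03 (adjusted p = 7.11e-13). *Nell2* stood at 3.43 and 0.01, a direct difference of 3.42 (adjusted p = 2.82e-18). *Uchl1* was higher with either factor, at 3.82 and 2.85, and by 0.98 more with Nrf1 (adjusted p = 1.51e-15). Heart muscle genes differed too: *Myh7* was at -1.07 and -0.26 (direct -0.80, adjusted p = 1.39e-16), *Tnni3* at -0.97 and 0.23 (direct -1.19, adjusted p = 1.19e-17), and *Acadvl* at 1.35 and 0.27 (direct 1.09, adjusted p = 4.61e-15).

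Some redox genes were lower with Nrf1 than with Nrf2. *Nqo1* was at 0.46 with Nrf1 and 2.75 with Nrf2 (direct -2.29, adjusted p = 4.68e-21), *Srxn1* at 1.71 and 2.77 (direct -1.06, adjusted p = 1.07e-16), and *Slc7a11*, which imports cystine, at -0.29 and 2.11 (direct -2.39, adjusted p = 3.04e-17). *Mgst1* differed less, at 2.52 and 2.31 (direct 0.22, adjusted p = 9.68e-05). For some genes no difference passed the test: *Lynx1*, a modulator of nicotinic receptors, was at 2.97 and 2.86 (direct 0.11, adjusted p = 0.0548), *Rtn4*, a protein that shapes the endoplasmic reticulum, at 0.66 and 0.69 (direct -0.02, adjusted p = 0.231), and *Bag3* at 0.69 and 0.71 (direct -0.01, adjusted p = 0.759). Of the 25 genes with the largest increase by ratio, 19 were higher and 3 lower with Nrf1 than with Nrf2, and all 25 with the largest decrease were lower with Nrf1. These genes were chosen for extreme values in the Nrf1 libraries that the direct comparison also uses, so these counts are a description.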

How the data were processed

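RNA of 6 libraries, 3 LacZ and 3 Nrf1, was compared, and the 3 Nrf2 libraries of the series were used for reference. Per the study's methods and the submitters' processing notes, the authors checked 75-bp single-end reads of stranded mRNA libraries with FastQC 0.11.4, aligned them to Rnor 6.0 with HISAT2 2.0.4, removed duplicates with SAMtools 0.1.18, counted reads per gene with featureCounts 1.6.0 and compared groups with edgeR 3.20.5. Removing duplicates from single-end reads can lower the counts of abundant genes. The deposited signal is, for each of 3 pairs of groups, the mean over a group's libraries of read counts divided by size factors. Fold changes and p-values of the authors' own comparisons stand in further columns and were not used, and 0 columns of single samples were left unused. Of the rows, 26 symbols had become dates and 4 shared a symbol, and *Nfe2l1* was not analysed here.

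Main values are ratios of the deposited means, and a gene was called past 1.5-fold where at least one mean reached 10. Reads per library were resolved as the whole numbers that give a group's mean under both sets of size factors. Where that mean reached 100, only numbers that put every library within 3-fold of it were accepted. In all, 31 rows were left without library values, 24 of them reaching a mean of 10. Low means, 2955 in LacZ and 2952 in Nrf1, were all sums of whole multiples of the 3 size-factor steps of their group. The resolved values were tested with limma 3.58.1 in R 4.3.3 (trend, pseudocount 1, Benjamini-Hochberg adjustment) and each library was left out in turn. On simulated data, 2925 of 2925 simulated LacZ means were resolved correctly (Nrf1 and Nrf2 means were not simulated). Limma's adjusted p and the 1.5-fold limit together called 90 of 100 genes changed by 1 and 99 of 100 changed by 2 on the log2 scale. Of 11229 unchanged genes, 4 were called, and the adjusted p with no fold limit was not tried on simulated data. Simulated libraries of a group differed little, so the 3-fold limit was not tried there. The mean chi-square per gene between libraries of a group was 2.50, 2.76 and 5.26 in LacZ and 1.44 to 1.63 in Nrf1, above the 1 that sampling noise gives, and all 6 libraries were kept.

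The text names genes from the 25 largest log2 ratios (mean of at least 100) and the 25 largest differences of means in each direction, outside proteasome genes and the innate immune and matrix name patterns, and the 2 highest and lowest members of 48 hand-written lists with a mean of at least 100. Further genes were picked with their values in view. Genes and lists were chosen with earlier results of these data known. List counts stand against the shares over all genes, and no list was tested. Groups came from the labels, and no rat genome or sequence was used here. A few members of these lists are not reported here.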

Additional observations from a re-analysis of the deposited data

How the results depend on the processing

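The counts of genes past 1.5-fold, 1359 higher and 2073 lower, moved most with the fold and the minimum level. A fold of 2 left 485 and 1122 genes, no minimum mean gave 2230 and 3596, a minimum mean of 100 kept 995 and 1022, and limma's adjusted p with no fold limit gave 3929 and 3718. Centring the ratios on the median of well expressed genes gave 1173 and 2251, and dividing by the summed means gave 1154 and 2278, so the excess of lower genes grew. At a minimum mean of 100 the excess of lower genes was nearly gone. Leaving out 1 library gave 1335 to 1424 higher and 2007 to 2117 lower genes. Of 3428 called genes with library values, 555 came within 1.5-fold when some library was left out, and 4 changed direction. The median log2 ratio of genes with a mean of at least 100, 0.05, was 0.00 at a minimum of 10, 0.11 at a minimum of 1000 and -0.01 after dividing by the summed means. Of 48 list medians, 5 changed sign when only members with a mean of at least 100 were kept, 6 after re-centring, 1 with members of a mean of at least 10 and 0 with a pseudocount of 5. The 5 were presynaptic genes, which moved most, from -0.15 to 0.33, cardiac transcription factors (-0.18 to 0.05), Nrf partners (-0.04 to 0.10), natriuretic and growth-stress genes (0.09 to -0.01) and lipogenesis genes (0.01 to -0.01). Limma with no fold limit, the overlap of library values (1291 and 1961 genes), the lists cut at a mean of 10 and the direct comparison with Nrf2 were chosen after seeing the data. No paired analysis was possible because the deposited means carry no replicate numbers. With 3 libraries per group, and libraries tied to no numbered sample, a batch could not be looked for.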

Other observations

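Gene families read from the start of the symbol, chosen after their values were seen and therefore without a test, showed further groups, where 11.9% of all genes were higher and 18.1% lower. Of 17 Rgs genes with a mean of at least 10, which shut off G protein signals, 11 were lower and 0 higher, with a median log2 ratio of -1.10, for example *Rgs2* from 337, 389.9 and 369 to 192, 194 and 189. Of 22 cytochrome P450 genes, 13 were lower and 1 had a ratio above 0, and of 19 semaphorin genes, which guide axons and vessels, 9 were lower and 2 higher. On the other side, 13 of 13 Trappc genes, which tether vesicles at the Golgi, had a ratio above 0 and 4 were higher, and 13 of 15 Pex genes, which build peroxisomes, had a ratio above 0 and 5 were higher. Of 27 Vps genes of endosomal sorting, 24 had a ratio above 0 but 2 were higher, a share below that of all genes. Fibroblast, endothelial and leukocyte markers fell beside the lower families, and their part in them was not tested.

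A small set of genes was unstable between libraries of 1 group. Of 10095 genes whose LacZ and Nrf1 means both reached 20, the highest library exceeded 3 times the lowest for 14 genes in LacZ, for 13 in Nrf1 and for 6 in both. Where a group's mean reached 100, reads were resolved only with every library within 3-fold of that mean. A gene with a library further off could not be counted, so these counts are partly set by the method. The 6 were *Col1a2*, *Hprt1*, *Mff*, *Myh9l1*, *Nhp2* and *Smarcb1*. *Hprt1*, a common reference gene, read 35.02, 2.11 and 111 in LacZ and 50.8, 4.59 and 109.5 in Nrf1 libraries. *Col1a2* read 116, 392 and 139 and 82.9, 22.02 and 15.03, far below *Col1a1*, which encodes the other chain of collagen I and read 86169, 85952 and 86588 and 22529, 23674 and 21608 in the same libraries.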
